A study of Mus musculus with 10 samples.

Results

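This section compares 2 RNA-seq libraries of mouse neural stem cells in culture, taken at passage 3 (P3) and at passage 1 (P1) from cells that carried a control virus. The members are the genes listed in both libraries by symbol and at 1 or more in at least 1 of them, which gave 13011 of 17919 genes. The cells were neural stem cells isolated on embryonic day 10 from the ventral midbrain of ICR mice. They had received a mock control lentivirus and were passaged every 4 days. The reference culture used below had the same strain, tissue and passages but a lentivirus for Lin28a, an RNA-binding protein of early embryos. Neither the number of embryos pooled nor the sex of the embryos is given in the sources used here, and a viral culture of mixed cells is not a clone. The series holds 10 libraries, 1 for each group, so every difference below lacks a check by replicates and no p-value was computed. Levels are the authors' FPKM, mapped fragments scaled by transcript length and library depth. Differences are log2 ratios of P3 over P1 after 1 was added to each level, which understates the change of low genes.

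Neural stem cells of the early midbrain divide as neuroepithelium, then make neurons under proneural factors such as Neurog2, and later turn to glia under factors such as Sox9, Olig2 and Sox10. The floor plate of the ventral midbrain secretes Shh and expresses Foxa2 and Lmx1a, which mark the progenitors of midbrain dopamine neurons. Passaging separates the cells of a culture and plates them again at a lower density. Astrocytes are known by Gfap and Aqp4, and oligodendrocytes by the myelin proteins Mbp and Mag.

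Past 2-fold, 1496 genes were higher at P3 (11.5%) and 1059 were lower (8.14%). Counted by any amount the 2 directions were close, with 6465 genes higher (49.7%) and 6546 lower (50.3%). These shares are the background for every list below. The median log2 ratio of all genes compared was 0.00, and 90% of the genes lay between the 5th and the 95th percentiles of -1.27 and 1.55. Among the 810 genes with a mean level of 100 FPKM or more, 147 were higher past 2-fold and 25 lower, so abundant genes were more often higher. The counts past 4-fold were 344 higher and 235 lower, and those past 16-fold were 40 and 10. In the Lin28a culture, the same genes gave 1066 higher (8.19%) and 608 lower (4.67%) past 2-fold. Just outside the level bound were Ptpn6, at 0.998 FPKM at P1 and 0.644 at P3, and Gdf1, at 0.214 and 0.999. Just inside it were Nfatc2, at 0.704 and 1.00015, and 4930538K18Rik, at 0.897 and 1.00056.

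**Figure D1:**
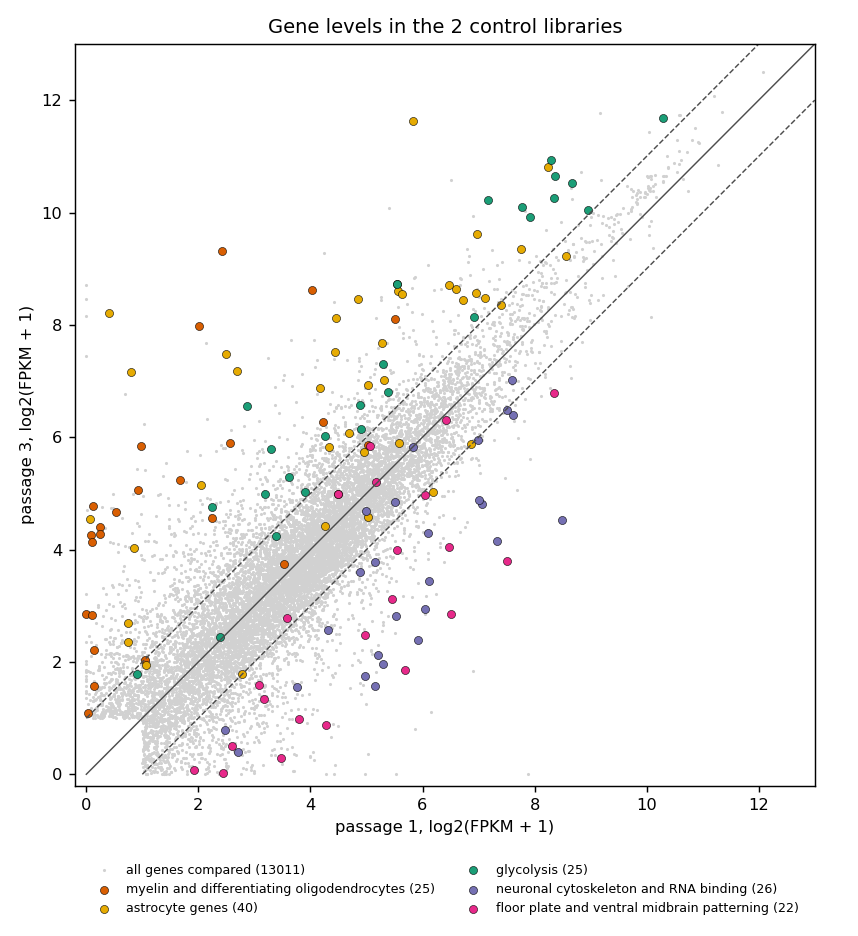
Each point is 1 gene, with its level in the P1 control library on the horizontal axis and in the P3 control library on the vertical axis, both as log2(FPKM + 1). Members of 5 lists are coloured, the solid line marks equal levels and the dashed lines a 2-fold difference. Myelin, astrocyte and glycolysis genes lie mostly above the upper dashed line, and neuronal and floor plate genes mostly below the lower one.

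In FPKM, the largest gains and losses fell on abundant genes. Gains were largest for Apoe, Dbi and Gapdh, given below, followed by Tmsb4x, an actin-binding peptide, at 2344 FPKM at P1 and 4288 at P3. Ckb, the brain creatine kinase, was at 1540.0 and 3412. Losses were largest for Stmn1 and for the tubulin gene Tuba1a, followed by Ptma, a nuclear protein of dividing cells, at 1108 and 661. Cd24a, a surface protein of immature neurons, was at 399.7 and 131, and Basp1, of growth cones, at 398 and 153. Eef1a1, the elongation factor, was the most abundant RNA in both libraries, at 4332 and 5781.

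The libraries were alike in the number of genes that reached 1 FPKM, but the summed FPKM was higher at P3. Scaling to that sum was not among the alternatives tried below, and it would lower every ratio. The deposited FPKM summed to 454278 at P1 and 571715 at P3, and 12433 and 12396 genes reached 1. A floor value of 4.8e-07 stands for genes without an estimate, which were 1365 at P1 and 1418 at P3. The 100 highest genes held 24.5% of the sum at P1 and 28.5% at P3. The total depth is unknown, and the steps between low values gave a P3 depth of 1.01 times that of P1, the ratio most often seen, in 65 of 1188 low genes. Of the genes past 2-fold, 20 of the higher and 18 of the lower ones were at the floor in 1 of the 2 libraries. Genes of short RNAs, which FPKM measures poorly, took several of the most extreme ranks. Mir703, Mir210, Snora30 and Snora28 were at the floor at P1, and Snora34, Mir466i, Snord22 and Snord15b at the floor at P3. The same holds for Mapk9, a stress kinase gene listed at 18.4 FPKM at P1 and at the floor at P3, but at 17.3 and 15.6 in the Lin28a culture. A ratio against a floor value depends on the 1 that was added and is no measured fold.

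The label of neural stem cells was met by progenitor markers in both libraries. Sox2, a neural stem cell factor, was at 262 FPKM at P1 and 389.6 at P3. Sox1 was at 36.1 and 47.9. Nes, the intermediate filament of neural progenitors, was at 88.2 FPKM at P1 and 38.6 at P3, lower past 2-fold. Of 14 radial glia and progenitor genes 5 were higher past 2-fold and 2 lower, with a median log2 ratio of 0.60, so this list did not move as a block. Prom1, which encodes a membrane protein of neuroepithelial cells, went from 111 FPKM to 21.6, whereas Hes5, the Notch effector, went from 30.5 to 116. Fabp7, a lipid carrier of radial glia, was already at 1521 FPKM at P1 and stood at 3418 at P3. Lin28a itself was at 0.128 and 0.0620 FPKM and Lin28b at 0.725 and 0.273, under 1 in both libraries.

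Markers of other lineages differed in level. None of 10 microglia and macrophage genes and neither of the 2 red cell genes in the tables reached 1 FPKM in either library. Endothelial genes reached 1 for 2 of 8, with Kdr at 7.86 FPKM at P1 and 4.47 at P3 and Flt1 at 0.267 and 4.31. Of 9 mesenchyme and fibroblast genes 5 were lower past 2-fold and 1 was higher, and their summed level was 68.1 FPKM at P1 and 31.6 at P3. Dcn, a matrix proteoglycan, went from 29.4 FPKM to 3.64 and Lum, another one, from 6.62 to 0.10002. The contractile genes Acta2 and Tagln of mural cells were higher, Acta2 at 37.0 FPKM at P1 and 211 at P3 and Tagln at 40.3 and 203, while Pdgfrb, the receptor of pericytes, was at 4.18 and 0.458. Of 4 ependymal genes compared, 2 were higher past 2-fold, the cilia factor Foxj1 at 32.1 and 68.4 FPKM and Rarres2 at 0.269 and 6.56. The other 2, Pifo at 3.13 and 1.63 and Dynlrb2 at 4.45 and 3.04, were lower within 2-fold. A further 2 genes of the list did not reach 1 FPKM. The part of such cells in the results below was not tested.

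Proneural and neuronal transcription factors were the lowest list at P3. Of 15 compared, 13 were lower past 2-fold and none was higher, with a median log2 ratio of -2.52. Neurog2, which starts neurogenesis in the ventral midbrain, was at 57.5 FPKM at P1 and 0.750 at P3, a log2 ratio of -5.06. Nhlh2, a factor of newborn neurons, was at 31.5 and 0.288, and its relative Nhlh1 at 11.9 and 0.0390. Neurod1, which acts after Neurog2 in the same cascade, went from 12.03 FPKM to 0.0359. Each of these genes was above 10 FPKM at P1 and under 1 FPKM at P3. Ebf3 and Ebf2, factors of early neuronal differentiation, were at 14.8 and 4.67 FPKM at P1 and at 0.251 and 0.0799 at P3. In bulk RNA, fewer cells of a type and less RNA per cell cannot be told apart.

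Structural and RNA-binding genes of neurons were lower in 22 of 26 cases past 2-fold, with a median of -2.17 and none higher by any amount. Tubb3, the neuronal tubulin, was at 359 FPKM at P1 and 22.2 at P3 (log2 ratio -3.96). Its sister genes of broader use moved less, with Tubb5 at 817 and 411 FPKM and Tuba1a at 2487 and 1831. Stmn2, a microtubule regulator of growing axons, was at 159.6 and 16.7 FPKM, and its progenitor relative Stmn1 at 1075 and 280.3, the largest loss of any gene in FPKM. The neuronal RNA-binding genes Elavl2 and Celf3 went from 30.6 to 2.38 FPKM and from 34.4 to 1.99. Kif5c, a kinesin of axonal transport, went from 59.2 to 4.21. Map2, whose product marks dendrites, stayed within 2-fold at 192 and 128. Islr2, a membrane protein of growing axons, was at 70.1 FPKM at P1 and 1.17 at P3, among the 5 lowest ratios of all genes.

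The genes of synaptic release were mixed. Of 25 vesicle and granule genes 12 were lower past 2-fold and 3 were higher, with a median of -0.97. Rab3c, a small GTPase of synaptic vesicles, was at 19.7 FPKM at P1 and 0.594 at P3. The vesicle protein genes Syt4 and Syt1 went from 21.5 to 0.814 and from 21.6 to 2.86. Their relative Syt11 was the reverse, at 92.9 and 228 FPKM. Of 17 neuropeptide and transmitter genes 11 were lower and 1 higher past 2-fold, with a median of -1.47. Slc17a6, the vesicular glutamate transporter of midbrain neurons, was at 20.1 FPKM and 0.861. Gad1 and Gad2, which make GABA, were at 12.7 and 6.30 FPKM at P1 and at 1.24 and 0.477 at P3. The peptide genes Sst and Cck were at 10.4 and 10.0 FPKM at P1, and at 0.548 and 0.4995 at P3. The markers of excitatory, inhibitory and peptidergic neurons named here were thus each lower at P3. The summed level of the 17 genes was not lower, at 192 FPKM at P1 and 249 at P3.

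Of 22 floor plate and ventral midbrain genes compared, 17 were lower past 2-fold and none was higher, with a median of -1.97. Shh, the ventral morphogen, was at 50.6 FPKM at P1 and 2.64 at P3. Foxa2, its target and the factor that defines the floor plate, was at 18.4 and 0.830, and the related Foxa1 at 42.7 and 7.75. Sulf1, a heparan sulfatase of the floor plate, went from 182 to 12.9 FPKM. Lmx1a and Lmx1b, which direct dopamine neuron fate, were at 30.4 and 12.8 FPKM at P1 and at 4.61 and 0.971 at P3. The list was not uniform, since Nkx2-2, a ventral factor that also acts in oligodendrocyte precursors, was at 32.5 FPKM at P1 and 56.1 at P3. Among genes of dopamine neuron identity 11 of 13 were lower past 2-fold, with none higher and a median of -1.84. Nr4a2, which is needed for dopamine neurons to mature, was at 6.99 and 1.23 FPKM. Th, the rate-limiting enzyme of dopamine synthesis, was just above the level bound at P1, at 1.07, and below it at P3, at 0.125. Ddc, the next enzyme, stood at 7.19 and 6.93. The library at P1 thus held regulators of dopamine progenitors at several FPKM or more but little of the enzyme.

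Genes of the boundary between midbrain and hindbrain, a signalling centre for the region, were lower in 11 of 14 cases past 2-fold (median -1.97). Fgf8, its secreted signal, was at 5.84 FPKM at P1 and 0.269 at P3. Wnt1, the second signal of the boundary, was at 5.74 FPKM at P1 and listed at the floor at P3. The midbrain factors En1 and En2 were at 24.5 and 41.8 FPKM at P1 and at 5.83 and 13.8 at P3, so they remained above the level bound. Forebrain regional factors were lower in 8 of 13 cases and higher in none (median -1.16). Nkx2-1, a factor of the hypothalamus and ventral forebrain and not of the midbrain, was at 92.7 FPKM at P1 and 32.1 at P3. Dlx1 and Dlx2, of forebrain inhibitory neurons, were at 10.1 and 12.4 FPKM at P1 and at 0.386 and 0.936 at P3. None of the 10 Hox genes in the tables, which mark hindbrain and spinal cord, reached 1 FPKM. By these genes the P1 library held midbrain and forebrain regional RNA, with Nkx2-1 at a higher level than En1 and En2. The measured Hox genes were under 1 FPKM.

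Factors of dorsal and intermediate progenitors were lower in 9 of 18 cases and higher in 2 (median -1.04), and here a pair of paralogs went opposite ways. Dbx1, of early intermediate progenitors, was at 118 FPKM at P1 and 2.58 at P3. Dbx2 was at 1.73 and 29.3, log2 ratios of -5.05 and 3.47. Zic1 was at 15.6 and 1.23 FPKM, and Tal2, a midbrain factor of GABA neurons, at 15.8 and 0.190. Pax6 was higher, at 3.08 and 9.01. Of 13 Sox factors 4 were higher past 2-fold, 1 was lower and 8 stayed within it (median 0.40). Sox10, the oligodendrocyte lineage factor, went from 1.04 to 74.8 FPKM and its relative Sox8 from 15.8 to 151. Sox11, a factor of immature neurons, went from 107 to 20.2, and the related Sox4 stood at 157 and 165. Sox9, of the glial switch, was at 43.3 and 85.4.

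**Figure D2:**
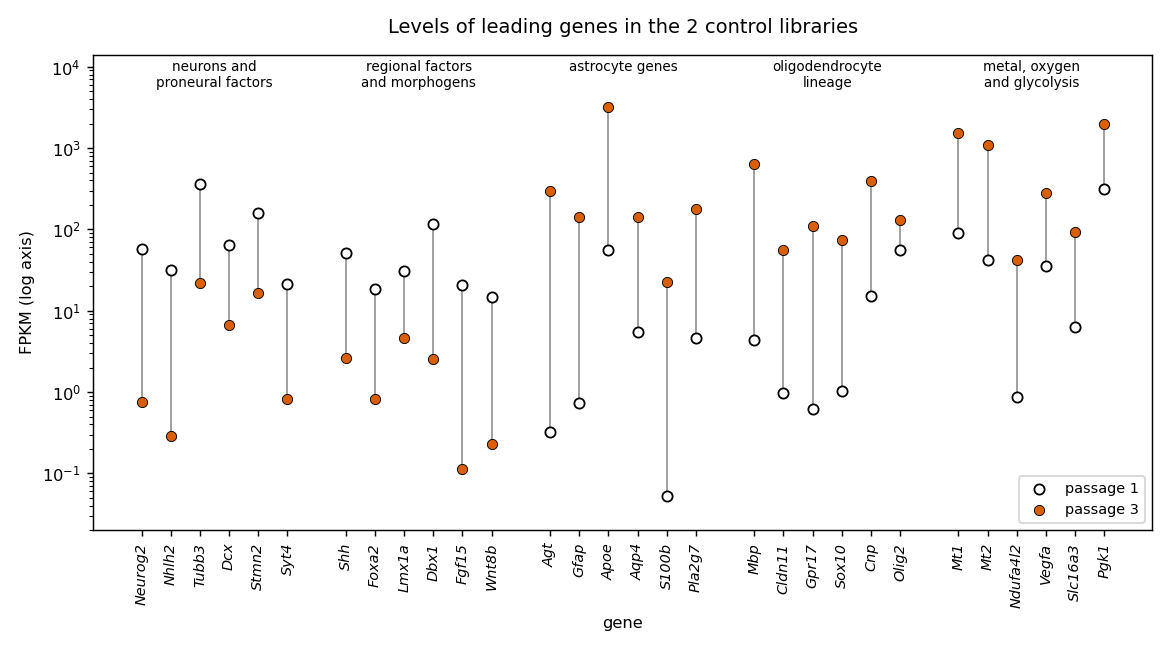
Open circles give the level of a gene in the P1 control library and filled circles in the P3 control library, as FPKM on a log axis, for 6 genes in each of 5 groups. Every gene of the 2 groups at the left was lower at P3 and every gene of the 3 groups at the right was higher, with Apoe at 3154.5 FPKM at P3 the highest point.

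Of 40 astrocyte genes 30 were higher at P3 past 2-fold and 1 was lower, with a median of 1.99. Agt, the angiotensin precursor made by astrocytes, had the highest ratio of any gene above the floor in both libraries, with 0.323 FPKM at P1 and 297 at P3 (log2 ratio 7.82). Gfap, the astrocyte intermediate filament, was at 0.743 and 142 FPKM. Apoe, the main lipid carrier of the brain, was at 56.0 FPKM at P1 and 3154.5 at P3, the largest gain of any gene in FPKM. S100b, at 0.0519 and 22.2 FPKM, and Gfap were thus under 1 at P1, while Apoe was already expressed. Aqp4, the water channel of astrocyte endfeet, went from 5.42 to 143 FPKM. Pla2g7, a secreted phospholipase, went from 4.65 to 177, and Ntrk2, whose short form is abundant in astrocytes, from 20.8 to 277. Of 7 gap junction and aquaporin genes 3 were higher and 3 lower past 2-fold. The astrocyte connexin Gja1 was at 31.7 and 121 FPKM, the neuronal connexin Gjd2 at 9.36 and 0.273 and the progenitor connexin Gjc1 at 22.1 and 5.13. Kcnj10, the potassium channel of glia, was at 6.04 and 72.8 FPKM. Over all 35 transmitter receptor and ion channel genes 9 were higher and 9 lower past 2-fold.

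Of 19 genes of oligodendrocyte precursors 14 were higher past 2-fold and 1 was lower, with a median of 2.16. Olig1 and Olig2, the factors that set the lineage, were well expressed at P1, with 101 and 55.7 FPKM, and were at 456 and 129.6 at P3. Pdgfra and Cspg4, the surface markers of precursors, were at 1.81 and 2.31 FPKM at P1 and at 15.9 and 14.3 at P3. Gpr17, a receptor of precursors that commit to differentiate, went from 0.616 to 109 FPKM, and Bcas1, of the same stage, from 3.37 to 203. The genes of the committed stage thus had larger ratios than Olig1 and Olig2.

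Myelin genes had the highest median of all lists of pathways, 3.33, with 21 of 25 higher past 2-fold and none lower by any amount. Mbp, a major protein of compact myelin, was at 4.39 FPKM at P1 and 633 at P3, a log2 ratio of 6.88. Cnp, an enzyme of myelin membranes, was at 15.4 and 391 and Mag, an adhesion protein, at 0.0808 and 26.5. Cldn11, the tight junction protein of myelin, was at 0.964 and 56.2 FPKM. Myrf, the factor that switches on myelin genes, was at 0.438 and 24.4. Enpp6, an enzyme of newly formed oligodendrocytes, was at 0.0536 and 18.3, and Gal3st1, which makes the myelin lipid sulfatide, at 0.184 and 20.2. Mobp, a gene of mature myelin, stayed low at 0.0232 and 1.13, and Opalin was listed at the floor at P1 and at 6.25 at P3. Sox10 is shared with Schwann cells, whose gene Pmp22 was at 9.16 and 15.7.

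Several glial genes that were high in RNA-seq at P3 had low values in the polysome library of the same culture and passage. Polysome-seq sequences RNA bound to several ribosomes, its unit is RPKM, and whether it used the same cells as RNA-seq is not given in the sources used here. Mbp was at 1.51 RPKM, Gfap at 4.06 and Agt at 2.30. Over the 25 myelin genes the median was 0.778 RPKM in polysomes and 24.4 FPKM in P3 RNA-seq, and 11 of 25 reached 1, against 90.8% of all genes compared. Over the 40 astrocyte genes the medians were 28.9 RPKM and 160.1 FPKM, and 35 of 40 reached 1. Gaps of this kind were not limited to glia. The medians were 58.0 RPKM and 1220.2 FPKM for ribosomal proteins and 20.3 RPKM and 111 FPKM for glycolysis, beside 8.37 RPKM and 11.9 FPKM for all genes compared. Not all glial genes were low there, since Olig1 was at 172 RPKM and Mt3 at 361, both named after their values were seen. The reason for these values was not tested, and the RNA-seq levels of differentiated glia at P3 stand on 1 control library and, with the same direction, on the Lin28a culture.

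In the Lin28a culture, which shares no library with the control culture, the medians of the lists had the same sign in 52 of the 56 lists with 5 or more genes compared. In each of the 12 lists with a control median below -1, the Lin28a median was nearer to 0. These 12 lists, and the 11 below, were picked by their control medians. That choice by itself favours a median nearer to 0 in the other culture, and some of the lists share genes. The largest gaps were those of the neuron markers, at -2.38 in control and -1.10 in Lin28a, and of the neuronal cytoskeleton and RNA-binding genes, at -2.17 and -1.08. Among the 11 lists with a control median above 1 the Lin28a median was nearer to 0 in 8. The exceptions were glycolysis, at 1.80 and 2.13, the hypoxia-induced genes, at 1.66 and 1.83, and the oligodendrocyte precursor markers, at 2.40 and 2.77. The lists of opposite sign were IGF and insulin genes, at -0.26 and 0.21, and 3 lists with medians near 0. These gaps between cultures were not tested.

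**Figure D3:**
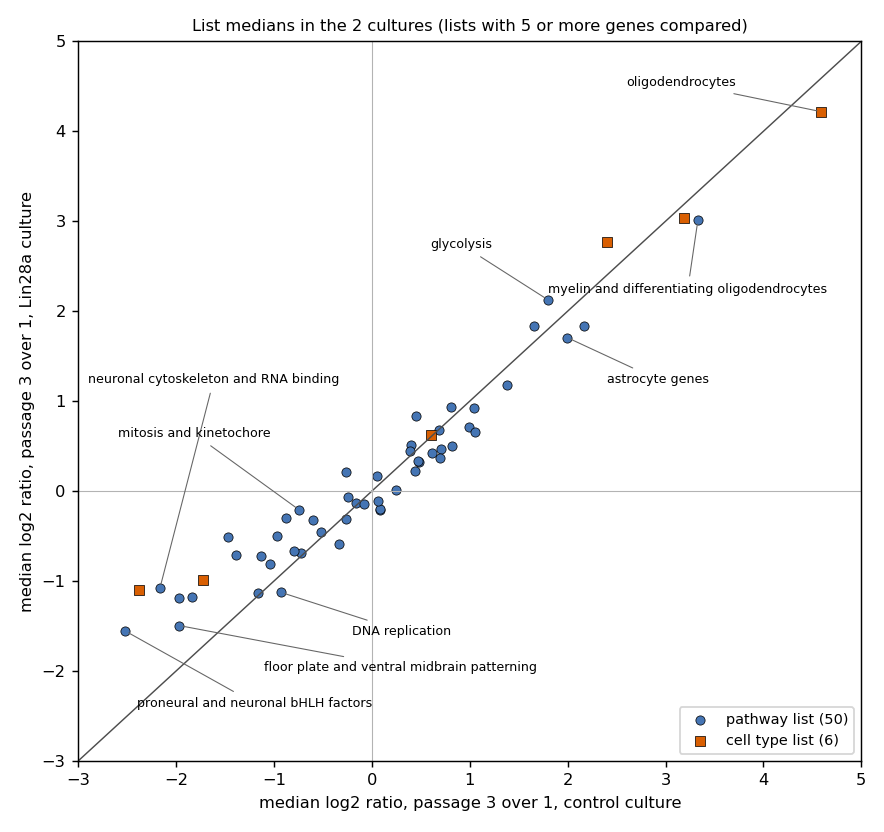
Each point is 1 list with 5 or more genes compared, with its median log2 ratio of P3 over P1 in the control culture on the horizontal axis and in the Lin28a culture on the vertical axis. The line marks equal medians. Lists with negative medians lie mostly above the line, so they were nearer to 0 in the Lin28a culture, while glycolysis lies above it on the positive side.

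The Notch pathway, which keeps progenitors from differentiating, was mixed, with 5 of 23 genes higher and 2 lower past 2-fold and a median of 0.05. The ligand Dll1 was higher, at 20.3 FPKM at P1 and 53.04 at P3, and the ligand Jag1 lower, at 16.04 and 3.76. The targets Hes5, Hey1 and Nrarp were higher, with Hey1 at 43.1 and 112 FPKM and Nrarp at 37.2 and 90.5, while Hes1 was at 49.3 and 31.0. Dlk1, an atypical ligand of imprinted origin, went from 20.2 to 2.34 FPKM. In the BMP pathway, a signal for astrocyte fate, 5 of 23 genes were higher and 3 lower (median 0.25). The ligand Bmp4 was at 3.74 and 22.7 FPKM, and the ligand Bmp7 at 21.1 and 6.71. The receptor Bmpr1b was at 4.16 and 21.5. Of the Id genes, direct BMP targets that block proneural factors, Id1 was at 70.3 and 173 FPKM and Id2 at 93.4 and 241, whereas Id4 was at 115 and 58.1. Ligands, receptors and targets of these pathways therefore did not share a direction.

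Wnt, Hedgehog and FGF signalling genes were lower more often than higher. Of 35 Wnt genes 10 were lower and 2 higher past 2-fold (median -0.52). The ligand Wnt8b was at 14.9 FPKM at P1 and 0.231 at P3, and the nuclear factor Lef1 at 29.0 and 1.68. The secreted inhibitors Wif1 and Dkk2 were lower too, at 48.7 and 16.3 FPKM at P1 and 2.63 and 1.20 at P3, while Axin2, a target used as a readout, stayed within 2-fold at 18.2 and 9.69. The 2 members higher past 2-fold were the ligands Wnt5b, at 2.61 and 12.6, and Wnt7a, at 3.80 and 11.1. Of 13 Hedgehog genes 6 were lower and 1 was higher (median -0.88). Beside Shh, the target Gli1 was lower, at 7.72 and 0.664 FPKM. Ptch1, the main receptor and also a target, was at 66.8 and 45.8. The higher member was Dhh, the ligand of Schwann cells, at 0.402 and 4.37.

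Of 25 FGF genes 9 were lower and 3 higher past 2-fold (median -0.33). Fgf15, a ligand of the embryonic midbrain, was at 20.8 FPKM at P1 and 0.115 at P3. Of the feedback inhibitors of FGF signalling in the list, 4 were lower past 2-fold, with Dusp6 at 82.6 and 12.8 FPKM, Dusp4 at 15.3 and 1.09, Spry1 at 67.1 and 13.2 and Spry4 at 16.1 and 4.59. The others, Spry2, Spred1, Spred2 and Dusp5, stayed within 2-fold. In the P3 polysome library Dusp6 was at 88.5 RPKM and Spry1 at 122. Without a polysome library at P1, these values cannot show a difference between passages. The receptor Fgfr3, of astrocytes and their progenitors, was higher at 24.7 and 66.0, and the receptor Fgfr1 stood at 55.3 and 45.3. Fgf11, a member that is not secreted, was at 3.07 and 28.6, whereas its relative Fgf13 was at 19.4 and 2.05. Of 9 genes of EGF and neurotrophin signalling, ligands and receptors together, none was lower past 2-fold and 4 were higher. These were Ntrk2, given above, the ligand Tgfa, at 1.47 and 7.27 FPKM, the membrane protein Lingo1, at 6.46 and 21.2, and Egfr. Egfr, the receptor for a growth factor used to expand neural stem cells, was at 21.8 FPKM at P1 and 56.2 at P3.

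Axon guidance genes were lower in 18 of 42 cases and higher in 5 (median -0.60). The repellents Slit2 and Slit1 were at 90.1 and 44.5 FPKM at P1 and at 6.25 and 4.69 at P3. Robo3, a relative of the Slit receptors, was at 4.47 and 0.203, and Dcc, a receptor for netrin, at 27.9 and 4.93. Ntn1, the netrin of the floor plate, was among the most abundant of the list at 323 and 109 FPKM. The highest ratio was that of Plxnb3, a semaphorin receptor of oligodendrocytes, at 0.262 and 19.8 FPKM. Adhesion genes and growth factor ligands had no common direction, with 5 of 23 higher and 5 lower past 2-fold (median -0.08). The axonal L1cam was at 11.8 and 0.981 FPKM and the proteoglycan Sdc4 at 7.75 and 54.5. Gpc3, a growth-limiting glypican of the embryo, was at 38.3 and 5.30.

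Of 40 DNA replication genes 38 were lower at P3, 18 of them past 2-fold, with none higher past 2-fold and a median of -0.93. Mcm2, a subunit of the replicative helicase, had the lowest ratio, at 43.7 FPKM at P1 and 13.6 at P3, followed by Tyms, which makes thymidylate, at 9.68 and 2.61. The helicase subunits Mcm3 and Mcm6 were at 35.5 and 41.9 FPKM at P1 and 11.5 and 15.4 at P3, and the origin licensing factor Cdt1 was at 12.8 and 4.68. All 40 mitosis genes were lower too, but only 5 of them past 2-fold (median -0.75). Bub1, a checkpoint kinase, was at 16.01 and 6.84, the motor Kif11 at 25.9 and 12.02 and the proliferation marker Mki67 at 33.5 and 17.3. In the Lin28a culture the median of replication genes was -1.13 and that of mitosis genes -0.21, so the mitosis list was nearer to 0 there and the replication list was not.

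Of 19 genes of G1 cyclins, CDKs, Myc and E2F factors 6 were lower and none was higher past 2-fold. Mycn, the Myc gene of neural progenitors, was at 19.8 FPKM at P1 and 4.25 at P3. Ccnd2, the cyclin of neural progenitors, was at 206 and 62.3, while its sister cyclins stood at 45.8 and 64.3 for Ccnd1 and at 29.4 and 58.6 for Ccnd3. E2f1, which drives replication genes, was at 14.2 and 4.81. In the P3 polysome library Ccnd2 was at 214 RPKM, E2f1 at 14.7 and Mki67 at 48.0. The series has no polysome library at P1, so these values cannot show whether their levels there differed between passages. Polysome levels in RPKM were below the P1 RNA-seq levels in FPKM for 10 of these 19 genes. The same held for 36 of 40 replication genes and 32 of 40 mitosis genes. It also held for 75 of 76 ribosomal protein genes and 27 of 30 lysosomal and protease genes, but for 7 of 25 p53 targets. The share over all genes compared was not computed and the units differ, so these counts are no result about cell cycle genes. Of 8 inhibitors of CDKs 3 were higher past 2-fold and none lower. Cdkn2b, a G1 inhibitor, was at 4.28 and 57.2 FPKM, its neighbour Cdkn2a, which accumulates in cells passaged for long, at 2.02 and 11.7, and Cdkn1a, a p53 target, at 34.4 and 148. Cdkn1b and Cdkn1c stayed within 2-fold, at 74.8 and 95.2 and at 114 and 166. Of 25 p53 targets 8 were higher and 1 lower (median 0.61), among them the death receptor Fas at 0.834 and 9.98 and Ccng1 at 81.2 and 304. Trp53 itself was at 50.0 and 33.7, and its inhibitor and target Mdm2 at 16.5 and 15.7.

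The promoters of replication and mitosis genes differed in the motifs they held. Windows of 300 bases, from 250 before to 50 after the start of a gene, were taken from RefSeq on GRCm38.p6 and searched on both strands. The E2F motif, as TTTCCCGC, TTTGGCGC, TTTCGCGC or TTTGCCGC, was found for 13 of 32 replication genes with a window and for 1 of 32 mitosis genes. It was found in 4.78% of the 9700 compared genes with a window and in 2.26% of all 32851 windows. The CCAAT motif was found for 26 of 32 mitosis genes and 19 of 32 replication genes, against 43.5% of compared genes and 37.4% of all windows. A match is a description of letters and not of binding. The windows of Mcm5 (chr8:75109259-75109558, plus strand) and Mcm6 (chr1:128359656-128359955, minus strand) are shown because they hold 2 and 3 E2F matches, which overlap in places. Capitals mark the matches. Mcm2, with the lowest ratio of the list, had no match in its window.
Mcm5: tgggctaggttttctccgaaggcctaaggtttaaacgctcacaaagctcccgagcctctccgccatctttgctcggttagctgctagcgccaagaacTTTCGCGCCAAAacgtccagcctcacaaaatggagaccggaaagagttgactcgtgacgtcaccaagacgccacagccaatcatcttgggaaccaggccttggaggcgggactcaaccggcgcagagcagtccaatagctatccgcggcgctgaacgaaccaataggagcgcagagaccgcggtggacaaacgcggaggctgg
Mcm6: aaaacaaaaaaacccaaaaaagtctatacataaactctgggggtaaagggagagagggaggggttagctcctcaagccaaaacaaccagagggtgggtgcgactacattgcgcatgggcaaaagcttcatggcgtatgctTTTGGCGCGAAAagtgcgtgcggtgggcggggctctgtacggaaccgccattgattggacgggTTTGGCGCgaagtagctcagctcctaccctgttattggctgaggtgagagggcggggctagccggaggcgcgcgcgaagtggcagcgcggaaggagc
Mcm5 was at 25.99 FPKM at P1 and 9.87 at P3, and the log2 ratios of Mcm5 and Mcm6 were -1.31 and -1.39.

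Glycolysis was the metabolic list that stood highest, with 22 of 25 genes higher past 2-fold, none lower by any amount and a median of 1.80. Genes of nearly every step took part. Slc16a3, which exports lactate, was at 6.29 FPKM at P1 and 92.6 at P3. Gpi1 was at 143 and 1189, Aldoa at 329 and 1612 and Tpi1 at 219 and 1099. Pgk1, which makes ATP in the lower part of the pathway, was at 312 and 1963. The brain form Aldoc, also an astrocyte marker, was at 45.4 and 421. Gapdh, often used as a reference gene, was at 1254 and 3284 FPKM, a log2 ratio of 1.39. Pdk1, which keeps pyruvate out of mitochondria, was at 8.81 and 54.3. The median polysome level of these 25 genes was 20.3 RPKM, beside median RNA-seq levels of 38.2 FPKM at P1 and 111 at P3.

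Of 30 genes known to be induced by low oxygen 23 were higher past 2-fold and none was lower, with a median of 1.66. Ndufa4l2, a mitochondrial protein made under low oxygen, was at 0.869 FPKM at P1 and 42.2 at P3. Vegfa, the vascular growth factor, was at 35.0 and 277, the mitophagy receptor Bnip3 at 37.5 and 346 and the peptide gene Adm at 1.06 and 16.7. Car9, a surface carbonic anhydrase, was listed at the floor at P1 and at 3.07 FPKM at P3. Of the oxygen-regulated factors themselves, Hif1a stood at 47.4 and 45.2 FPKM, its paralog Epas1 at 2.05 and 14.5 and Hif3a at 2.44 and 7.47. Hif1a is controlled mainly through protein stability, which RNA does not measure. The Lin28a culture gave 23 of 30 higher as well.

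A microRNA induced by low oxygen was also higher in the small RNA libraries of the same cultures. These libraries held 6322534 microRNA counts at P1 and 8288085 at P3. Counts of 1 library a group carry 95% intervals for counting error only, and no replicate. miR-210-3p, named after its values were seen, had 2133 counts at P1 and 50740 at P3, a ratio of counts scaled to the library total (counts per 1000000, CPM) of 18.1 with an interval of 17.38 to 18.96. Its mature sequence is shown with the seed, bases 2 to 8, in capitals.
miR-210-3p: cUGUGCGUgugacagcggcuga
The hairpin gene Mir210 itself is too short for FPKM and was listed at the floor at P1.

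The core of the hypoxia response element, ACGTG, was found for 14 of 24 glycolysis genes and 14 of 22 hypoxia-induced genes with a promoter window. The share was 29.4% among compared genes and 19.6% among all windows. The windows of Pgk1 (chrX:106186850-106187149) and Ldha (chr7:46845554-46845853), both on the plus strand, are shown because they hold 2 and 5 matches. Capitals mark the matches on either strand, some of which overlap.
Pgk1: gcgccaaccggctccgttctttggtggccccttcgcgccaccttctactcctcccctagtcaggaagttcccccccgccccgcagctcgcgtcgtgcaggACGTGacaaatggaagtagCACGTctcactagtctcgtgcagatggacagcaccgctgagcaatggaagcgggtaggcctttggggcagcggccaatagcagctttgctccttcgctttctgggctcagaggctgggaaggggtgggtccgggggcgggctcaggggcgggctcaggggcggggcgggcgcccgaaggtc
Ldha: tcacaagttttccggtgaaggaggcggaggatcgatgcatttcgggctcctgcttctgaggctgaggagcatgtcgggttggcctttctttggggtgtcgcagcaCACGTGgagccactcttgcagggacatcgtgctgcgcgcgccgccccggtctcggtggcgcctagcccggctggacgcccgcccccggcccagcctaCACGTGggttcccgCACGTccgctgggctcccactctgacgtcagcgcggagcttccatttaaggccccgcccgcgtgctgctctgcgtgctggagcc
Ldha, which makes lactate, was at 325 FPKM at P1 and 1230.2 at P3, and the heart form Ldhb at 120.4 and 279.8.

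Mitochondrial genes were higher as a group by small amounts. All 66 oxidative phosphorylation genes were higher by any amount, against a background of 49.7%, but only 6 past 2-fold, with a median of 0.70. Ndufv3, of complex I, was at 121 FPKM at P1 and 304 at P3, and Cox6b1, of complex IV, at 525 and 1016. Of 25 genes of the citric acid cycle 24 were higher by any amount and 1 past 2-fold. Ribosomal protein genes shared the pattern, with 74 of 76 higher by any amount and a median of 0.39. Only Rps27 passed 2-fold, at 28.7 and 152 FPKM, but in the Lin28a culture it was at 37.7 and 25.6, and reads of ribosomal protein genes can be split with pseudogenes. Genes of protein folding in the endoplasmic reticulum did not share it, with none of 27 past 2-fold either way and a median of 0.06. The background of 49.7% covers genes of all levels, while the oxidative phosphorylation genes had median levels of 155 FPKM at P1 and 243 at P3. The 810 genes with a mean level of 100 FPKM or more had a median of 0.39 and quartiles of -0.07 and 0.77. The small shifts of the ribosomal protein and oxidative phosphorylation genes stand beside these values.

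Metallothioneins, which bind zinc and copper, had some of the largest gains in FPKM. Mt1 was at 89.7 FPKM at P1 and 1519.6 at P3, Mt2 at 41.4 and 1076 and the brain form Mt3 at 46.5 and 386. Of the 8 genes of this list 4 were higher past 2-fold and none lower, the fourth being the transporter Slc30a10 at 3.07 and 16.6. Slc30a1, the other metal-induced exporter, was at 9.60 and 15.3, and the metal-sensing factor Mtf1 at 5.37 and 8.92. The core of the metal response element, TGCACNC or TGCGCNC, was found in 6 of 8 windows of the list, against 42.2% among compared genes and 25.7% among all windows. Other lists held it often as well, with 15 of 24 glycolysis genes, 12 of 22 hypoxia-induced genes and 17 of 32 replication genes. In mitosis genes it was found for 11 of 32. The windows of Mt1 (chr8:94178839-94179138) and Mt2 (chr8:94172368-94172667), neighbours on the plus strand, held 3 and 4 matches, in capitals.
Mt1: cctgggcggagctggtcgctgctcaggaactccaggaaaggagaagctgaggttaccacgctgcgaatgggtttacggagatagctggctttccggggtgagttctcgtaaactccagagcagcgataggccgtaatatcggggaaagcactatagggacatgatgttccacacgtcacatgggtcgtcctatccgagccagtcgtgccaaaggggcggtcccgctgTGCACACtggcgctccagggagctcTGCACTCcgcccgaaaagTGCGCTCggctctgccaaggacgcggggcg
Mt2: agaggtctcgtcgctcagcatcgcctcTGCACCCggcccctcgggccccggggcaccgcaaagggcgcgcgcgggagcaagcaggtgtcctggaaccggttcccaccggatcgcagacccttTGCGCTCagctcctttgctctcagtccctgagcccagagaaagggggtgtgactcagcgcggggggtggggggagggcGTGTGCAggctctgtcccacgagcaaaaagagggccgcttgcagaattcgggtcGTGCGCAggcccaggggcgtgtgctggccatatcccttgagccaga
The Mt1 and Mt2 ratios in the Lin28a culture were 3.35 and 3.41, beside 4.07 and 4.67 here.

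Of 35 genes of antioxidant defence 13 were higher past 2-fold and none was lower (median 0.69). Gstm1, a glutathione transferase, was at 109.5 FPKM at P1 and 653 at P3, and Prdx6, a peroxiredoxin of astrocytes, at 47.0 and 249. Gpx3 was at 7.93 and 52.4. Nfe2l2, the factor that induces many of them, was at 26.6 and 56.6. Amino acid stress genes did not go with them. Among 25 genes of serine and one-carbon metabolism and of the ATF4 response 4 were higher and 5 lower (median 0.09). The ATF4 targets Chac1, Trib3 and Mthfd2 were lower, Chac1 at 4.60 and 0.445 FPKM, Trib3 at 1.33 and 0.148 and Mthfd2 at 20.9 and 4.65, while Psph, of serine synthesis, was higher at 14.9 and 50.1. The enzymes Gpt2, at 35.0 and 159, and Cbs, at 23.4 and 72.3, were higher too.

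Lipid genes were higher in 15 of 31 cases and lower in 3 (median 1.00). Beside Apoe, the lipoprotein genes Apoc1 and Lcat were higher, Apoc1 at 0.476 FPKM at P1 and 14.6 at P3 and Lcat at 1.41 and 30.4. Lpl, a lipase of the cell surface, and Apod were lower, at 11.8 and 8.27 FPKM at P1 and at 2.102 and 1.32 at P3. The desaturases gained much in FPKM, with Scd2 at 1049 and 2751 and Fads1 at 101 and 416. Dbi, a carrier of acyl-CoA in glia, was at 576 FPKM at P1 and 3494 at P3, the second largest gain after Apoe. Cholesterol synthesis, which myelin needs, was higher past 2-fold for 2 of 23 genes (median 0.47), so it did not follow the myelin genes in size. Its members past 2-fold were Tm7sf2, at 22.6 and 56.7, and Mvd, at 19.3 and 40.0. All 30 lysosomal and protease genes were higher by any amount and 15 past 2-fold (median 1.04). Ctsh, a cathepsin, was at 1.99 and 18.3 FPKM, Lgmn at 21.6 and 93.8 and Tfeb, the factor that induces lysosomal genes, at 2.53 and 9.79. The secreted protease inhibitor Cst3 was at 301 and 1794.

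Matrix, antigen presentation and cytokine genes were higher more often than lower. Of 46 matrix and integrin genes 21 were higher and 3 lower past 2-fold (median 0.81). The brain proteoglycans Bcan and Ncan were at 51.9 and 73.0 FPKM at P1 and at 329 and 392 at P3. The integrin Itga7 was at 1.69 and 45.7, and Tnr, a matrix protein of oligodendrocytes, at 0.687 and 15.6. The fibrillar collagens Col3a1 and Col2a1 were lower, at 5.26 and 13.4 FPKM at P1 and 0.889 and 3.04 at P3. Of the other two fibrillar collagens named, Col1a2 was higher, at 6.23 and 14.7, and Col1a1 stood at 8.59 and 7.97. Of 27 complement, MHC and interferon genes 16 were higher and 1 lower (median 1.05). B2m, the shared chain of MHC class I, was at 27.4 and 109 FPKM, and the peptide transporter genes Tap1 and Tap2 at 2.33 and 1.64 at P1 and 13.8 and 11.6 at P3. The immunoproteasome genes Psmb9 and Psmb10 were at 0.0623 and 4.77 at P1 and 3.32 and 28.1 at P3. These genes were higher with all 10 microglia and macrophage genes under 1 FPKM in both libraries. Of 15 chemokine and cytokine genes 5 were higher and 2 lower past 2-fold (median 0.44). Stat3, a mediator of astrocyte differentiation, was at 26.9 and 80.7, and the receptor Lifr at 7.14 and 18.7. The lower ones were Socs2, an inhibitor of cytokine signalling, at 7.69 and 1.61 FPKM, and the chemokine Cxcl12 at 5.94 and 1.28.

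Of 21 imprinted growth genes 13 were lower past 2-fold and none was higher (median -1.39). Meg3, Rian and Mirg, noncoding RNAs of an imprinted cluster, were at 78.0, 101 and 3.71 FPKM at P1 and at 15.5, 18.99 and 0.529 at P3, and Dlk1 of the same cluster was lower as given above. Magel2 and Peg10 were at 10.0 and 178 FPKM at P1 and 0.666 and 37.8 at P3. Plagl1, a factor of the imprinted network, was at 40.2 and 8.65. H19 went against these, at 17.1 and 33.6, and its neighbour Igf2 stood at 3.26 and 1.87. The binding proteins of IGF were higher in part, with Igfbp2 at 407 and 1205 FPKM and Igfbp5 at 160.2 and 534, while Igfbpl1, a gene of immature neurons, was at 74.3 and 8.26.

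Nuclear regulators of RNA and chromatin were lower more often than higher. Of 35 splicing factors 12 were lower past 2-fold and none was higher (median -0.79). The neuronal regulators Srrm4 and Rbfox1 were at 9.60 and 4.65 FPKM at P1 and at 0.517 and 0.113 at P3. General factors were lower as well, with Hnrnph1 at 275 and 106 and Srsf2 at 198 and 77.6. Qk, a regulator of myelin gene splicing, went the other way at 282 and 538. Of 29 DNA methylation and Polycomb genes 5 were lower and 1 was higher (median -0.27). Several of the lower ones act in dividing cells, with Uhrf1 at 50.1 and 20.0, Dnmt1 at 43.1 and 18.3 and Ezh2 at 48.2 and 21.2. The higher member was Gadd45b, at 1.92 and 13.9. Of 21 immediate early genes, which respond to handling, 5 were higher and 5 lower, with Fos at 5.49 and 22.3 and Egr1 at 25.1 and 8.50. Of 15 histone genes 3 were higher and none lower past 2-fold, but 10 were lower by any amount (median -0.24). RNAs of the histones made during replication lack the poly(A) tail that the libraries are labelled as selected on.

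**Figure D4:**
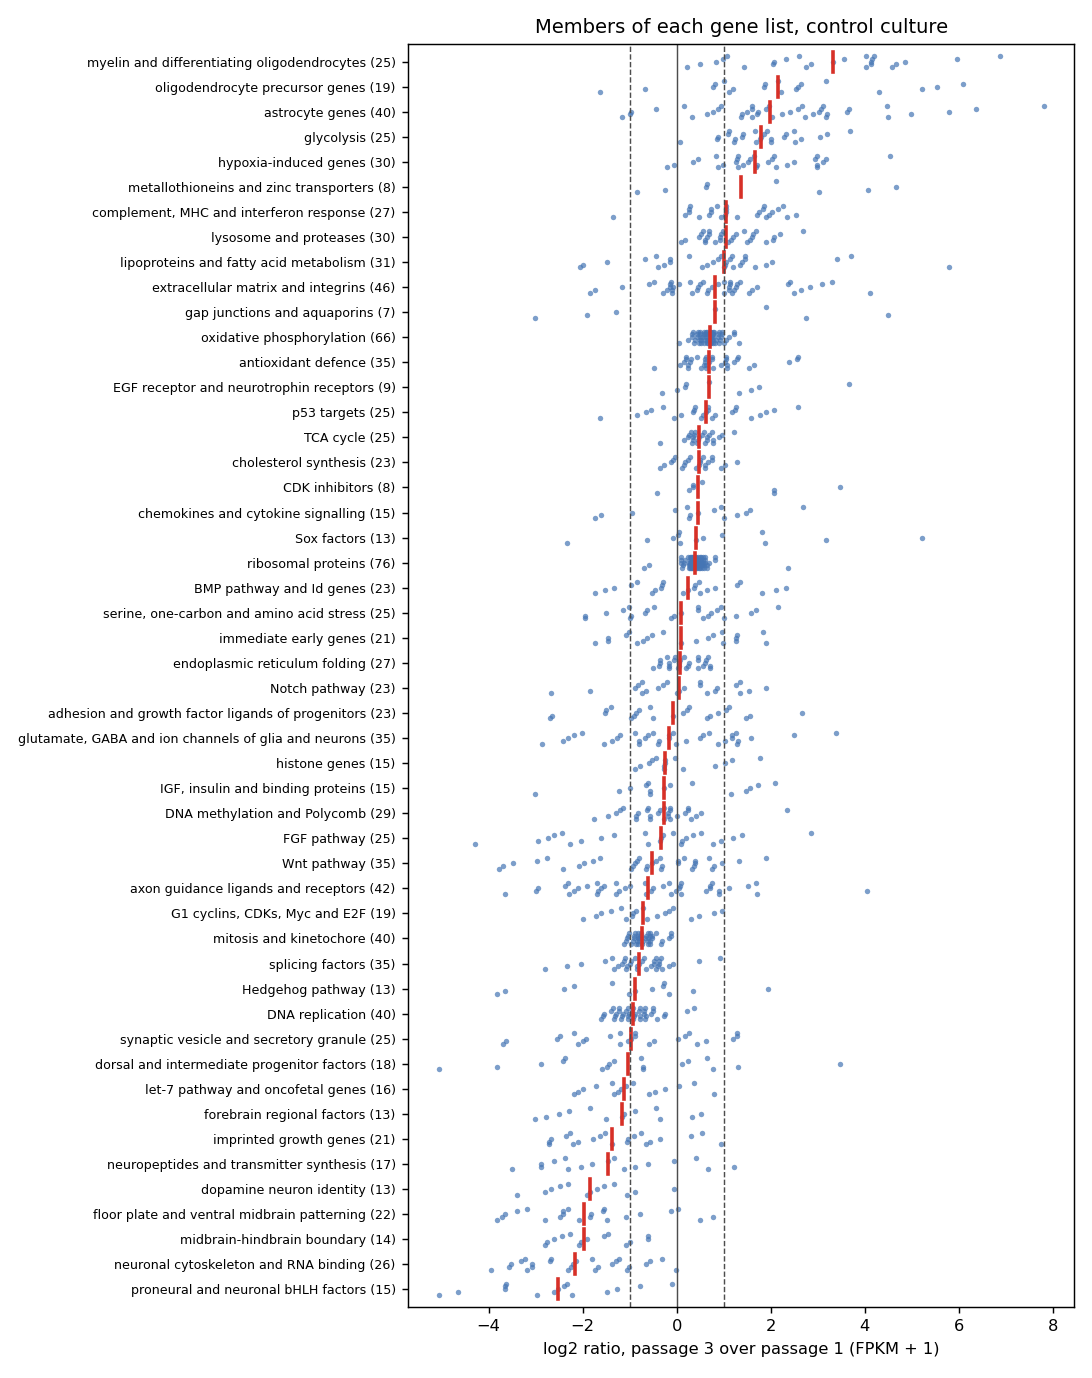
Each row is 1 of the 50 pathway lists with genes compared, and each point the log2 ratio of P3 over P1 of 1 member in the control culture. The red bar is the list median, the dashed lines mark a 2-fold difference and the number compared follows the name. Medians run from -2.52 for the proneural factors to 3.33 for the myelin genes, and the oxidative phosphorylation and ribosomal protein genes form narrow clusters right of 0.

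The microRNA best known from neurons was lower at P3 in the small RNA libraries, and all but 1 of the measured arms of the oligodendrocyte microRNAs were higher. miR-124-3p, the main microRNA of neurons, had 4094 counts at P1 and 584 at P3, so its CPM was 9.19-fold lower at P3. miR-338-3p and miR-219a-2-3p, which act in oligodendrocyte differentiation, were higher, miR-338-3p with 486 and 3403 counts and a CPM ratio of 5.34 (4.86 to 5.89), and miR-219a-2-3p with 426 and 6270 counts and a ratio of 11.2 (10.2 to 12.4). The arm miR-338-5p had 59 and 1530 counts. miR-219a-5p, which is shared by both miR-219a hairpins, had a ratio of 2.47, and the arm miR-219a-1-3p of the first hairpin a ratio of 0.631. The 2 hairpins therefore did not share a direction in their 3′ arms. miR-9-5p, of neural progenitors, had 211782 and 694438 counts, a ratio of 2.50, and its other arm miR-9-3p a ratio of 6.54. Sequences of arms of miR-338, miR-219a and miR-9 are shown with the seed in capitals. The arms shown share no seed, and both arms of each hairpin are shown for miR-338 and miR-9.
miR-338-3p: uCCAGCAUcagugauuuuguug
miR-338-5p: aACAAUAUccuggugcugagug
miR-219a-5p: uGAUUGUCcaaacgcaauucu
miR-219a-1-3p: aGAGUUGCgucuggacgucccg
miR-9-5p: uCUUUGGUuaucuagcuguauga
miR-9-3p: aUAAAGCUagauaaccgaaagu

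The let-7 family, which represses growth genes and is itself blocked by Lin28a, was higher at P3 in control. Its 9 guide strands summed to 349182 counts at P1 and 1039228 at P3, a CPM ratio of 2.27 (2.26 to 2.28). All 9 share the seed GAGGUAG, yet their ratios ranged from 1.31 for let-7g-5p to 7.70 for let-7b-5p. let-7b-5p had 5747 counts at P1 and 58018 at P3, and let-7g-5p had 29962 and 51325. These members are shown with let-7d-5p, the only one whose first base differs.
let-7b-5p: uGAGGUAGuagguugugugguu
let-7g-5p: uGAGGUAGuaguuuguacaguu
let-7d-5p: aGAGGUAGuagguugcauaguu
Close relatives differ by few bases, so reads may be assigned between them. Of 16 genes of the let-7 pathway and of fetal growth 9 were lower past 2-fold and none higher (median -1.13), a list chosen with earlier results of these data known. The RNA-binding gene Igf2bp1 was at 9.53 FPKM at P1 and 1.32 at P3, and Hmga2, a chromatin protein and let-7 target, at 4.10 and 1.43. Its paralog Hmga1 was at 64.1 and 112. The microRNAs of the proliferative miR-17 to 92 cluster had ratios from 0.252 for miR-19a-3p to 3.20 for miR-18a-5p. Between these were miR-17-5p at 0.930 and miR-92a-3p at 2.52. Members of the miR-302 family, of pluripotent cells, had at most 10 counts in either library.

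**Figure D5:**
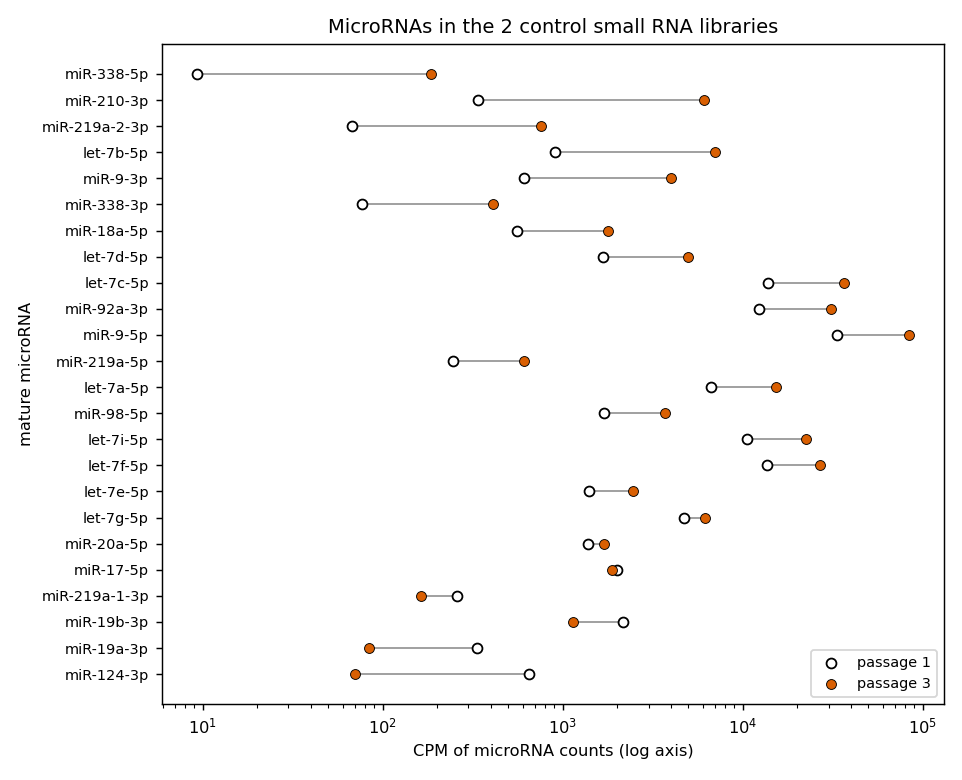
Open circles give the CPM of a microRNA in the P1 control small RNA library and filled circles in the P3 control library, on a log axis, in the order of their ratios, for the microRNAs above 5 CPM at P1. miR-338-5p and miR-210-3p have the widest gaps to the right, and miR-124-3p has the widest gap to the left among the microRNAs plotted, with 647.5 CPM at P1 and 70.5 at P3.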

How the data were processed

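RNA-seq, small RNA and polysome libraries were made from control cultures, 1 for each group, so p-values and SDs across samples are not given. Reads were processed with Bowtie 1.0.0, TopHat2 2.0.6 and Cufflinks 2.1.1 on mm9, per the submitters' processing notes. The tool behind each file is not given there. The RNA-seq values are FPKM per gene, normalized by the authors for transcript length and depth. The control polysome values are RPKM deposited by the authors, inferred from the values. The small RNA values are raw counts per mature microRNA, deposited by the authors without normalization. The labels call the RNA-seq libraries poly(A)-selected, while the labels' extraction text names a stranded total RNA kit.

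Log2 ratios used a pseudocount of 1 for genes at 1 or more in either library, and a gene past 2-fold on that scale is counted as higher or lower. The ratio step was run on simulated levels with set changes and no noise, which checks the arithmetic and not the calls between real libraries. MicroRNA counts were scaled to all microRNA counts of a library, with exact conditional binomial intervals at 95%. Of 17919 symbols 16802 matched a reference name table. MicroRNA sequences and promoter windows are from RefSeq, the latter on GRCm38.p6 and matched by symbol, and no other coordinates are given. Calculations ran in Python 3.11.15 (numpy 2.4.6; scipy 1.17.1; pandas 2.3.3) and figures in matplotlib 3.10.9. There were 0 columns of other samples.

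The comparison and the 64 gene lists were chosen with earlier results of these data known. The genes named are the 15 highest and 15 lowest ratios, in each list the 8 or fewer members farthest from a ratio of 0 and all members where a list had 12 or fewer, the 10 highest levels and the 10 largest differences each way, Lin28a and Lin28b, and relatives or opposites of these. Outside that rule, after their values were seen, Axin2, Car9, Col2a1, Cox6b1, Ddc, Dusp5, En2, H19, Hmga2, Igf2, Ldha, Mdm2, Mirg, Nfe2l2, Ntn1, Ptch1, Qk, Spred1, Spred2, Spry2, Spry4, Th, Trib3, Trp53, Wnt5b and Wnt7a were named. The alternatives were other pseudocounts, level filters and scalings, and, chosen after seeing the data, leaving out genes of short RNAs. Some genes are not reported here.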

Additional observations from a re-analysis of the deposited data

Results flagged for a closer look

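Among all genes compared, 3 passed 2-fold in opposite directions in the control and the Lin28a culture. The difference between the cultures was not tested for any of them. Snora81, a short nucleolar RNA gene, had a log2 ratio of 2.35 in control and -3.03 in the Lin28a culture. It was listed at the floor at P1 in control and at P3 in the Lin28a culture, so both ratios depend on the 1 that was added, and FPKM measures short RNAs poorly. Amd1, an enzyme of polyamine synthesis, had 3.92 in control and -1.20 in the Lin28a culture, with 0.560 FPKM at P1 and 22.6 at P3 in control, and 1.33 and 0.0147 in the Lin28a culture. Hnrnpd, an RNA-binding protein gene, had -1.52 in control and 4.80 in the Lin28a culture, where it was listed at the floor at P1 and at 26.8 FPKM at P3, so the second ratio likewise is no measured fold. Groups of 1 library allowed no check for samples that stand apart from their group.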

How the results depend on the processing

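The counts past 2-fold, 1496 higher and 1059 lower, became 817 and 413 with a pseudocount of 5. With a pseudocount of 0.1 they were 1860 and 1468, with genes at 5 or more in either library 1255 and 773, with ratios centred on their median 1503 and 1050, and with upper quartile scaling 1350 and 1191. Without genes at the floor they were 1476 and 1041, and without genes of short RNAs, an alternative chosen after seeing the data, 1491 and 1055. Upper quartile scaling moved the median of all genes to -0.06. Of 443 named genes, 71 crossed the 2-fold bound with a pseudocount of 5, 7 with a pseudocount of 0.1, 9 with upper quartile scaling and 1 with centring, and none changed sign while past the bound. Foxm1, E2f3, Hist1h2bc, Cox8a, Atp5e, Mvd, Cxcl1, Cxcr4 and Tubb5 were the 9 that crossed under upper quartile scaling. Of 61 list medians, at most 10 moved past or off the bound under any of these settings. No paired analysis was possible because each group holds 1 library. Depth limits low genes most, and the total depth of the RNA-seq libraries is unknown.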

Other observations

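Among genes with no place in the lists, chosen here after their values were seen, the gap between the passage ratios of the 2 cultures was large for a few. Cryab, a small heat shock protein gene of glia, was at 1.06 FPKM at P1 and 42.0 at P3 in control, and at 2.11 and 13.7 in the Lin28a culture. Crip1, a small zinc-binding protein gene, was at 2.46 and 53.02 FPKM in control and at 4.46 and 21.1 in the Lin28a culture. Gpd1, a glycerol phosphate enzyme, was at 1.55 and 13.2 FPKM in control and at 1.35 and 2.48 in the Lin28a culture. Eif3j2, a copy of an initiation factor gene, was at 28.9 and 7.39 FPKM in control and at 29.6 and 0.276 in the Lin28a culture. None of these differences between cultures was tested.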
